A study of Homo sapiens with 12 samples.

Results

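The genes examined are 9 transcription factors of the myeloid lineage, namely SPI1, CEBPA, CEBPB, CEBPD, CEBPE, IRF8, KLF4, EGR2 and RUNX1, out of 19962 protein-coding genes of GENCODE release 44. They are taken by name. All 9 were found in the annotation. Each was described by the peaks of the histone modification H3K4me2 that touched its canonical transcript or lay within 100 kb of its canonical start site. The modification had been mapped by ChIP-seq with paired-end reads in U-937, a single leukaemia line of human monocytic cells, which the labels call acute myeloid leukaemia cells. All groups share this line, and each was treated for 24 hours: with the vehicle DMSO, with ATRA at 0.1 µM, with Corin at 0.1 µM, or with ATRA+Corin at 0.1 µM each. ATRA is all-trans retinoic acid, a ligand of the retinoic acid receptors, and Corin is a synthetic inhibitor of the demethylase LSD1 and the deacetylases within the CoREST complex. The 12 libraries were 8 H3K4me2 libraries, 2 for each treatment, and 4 inputs, 1 for each treatment. They reached the deposited files as 4 peak lists, 1 pooled list for each treatment.

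H3K4me2 marks promoters and enhancers, both active ones and ones that are held ready, so a peak shows where a gene's control elements are marked and not how much RNA the gene makes. LSD1, with its CoREST partners, removes methyl groups from H3K4, and in myeloid cells it is recruited to DNA by repressors of the GFI1 family. PU.1 (the product of SPI1), the C/EBP proteins, IRF8 and RUNX1 bind enhancers of myeloid genes together, often including enhancers of their own genes, and their balance directs progenitors towards monocytes or granulocytes.

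Replicate values were not part of the lists. The error of a difference between treatments is therefore unknown, and what follows compares 1 list with another and gives no p-values. The lists held 65172 (DMSO), 66385 (ATRA), 73997 (Corin) and 83969 (ATRA+Corin) peaks, and the background of the H3K4me2 libraries, recovered from the deposited values, stood at 1.017 (ATRA), 1.097 (Corin) and 1.199 (ATRA+Corin) relative to DMSO. Of 8 myeloid marker genes fixed for the check, 7 had a peak within 1 kb of the start site in every list, the exception being MPO. The same held in the DMSO list for 1 of 4 erythroid (KLF1), 1 of 4 T cell (CD2) and 1 of 4 megakaryocyte (ITGA2B) markers. Fold enrichment and −log10 q of a peak are the authors' values and rank peaks within a list. Where values of several lists stand side by side, each belongs to its own list, and their difference is not a measured change. Distances are in bp from the canonical start site along the direction of transcription, and negative values lie upstream. Coordinates are on GRCh38.

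Across all 9 genes the windows held 106 regions with a DMSO peak, 111 with an ATRA peak, 129 with a Corin peak and 154 with an ATRA+Corin peak. Over the genome the numbers were 50651, 55980, 60428 and 74264 in the same order of lists. A region is a stretch of overlapping or touching peaks of any of the 4 lists, and there were 177 distinct ones near these genes, 92 of them (52.0%) present in all 4 lists. Over the genome 51.2% of 84577 regions were present in all 4. A further 27 regions (15.3%) were found only in the ATRA+Corin list, 17 (9.60%) only in the Corin and ATRA+Corin lists and 13 (7.34%) only in the Corin list. The corresponding shares over the genome were 16.3%, 7.31% and 4.76%. The length under peaks in the 9 windows added up to 244 kb (DMSO), 266 kb (ATRA), 314 kb (Corin) and 347 kb (ATRA+Corin). Whole lists covered 73.44, 83.67, 95.02 and 108.52 Mb in that order. Both sums for the 9 genes were lowest for DMSO and highest for ATRA+Corin, as were both totals over the genome. No spread between replicates can be set against the steps. The order of the region counts turned in part under other rules. They were 106, 111, 116 and 115 in the same order of lists with lists of equal length, 151, 145, 176 and 179 with single peaks and 50% overlap, and 66, 64, 78 and 92 with only regions nearest to the gene.

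SPI1, CEBPA, CEBPB, CEBPE and RUNX1 each had more regions in the ATRA+Corin list than in any other. CEBPB had 14, 16, 19 and 30 regions in the DMSO, ATRA, Corin and ATRA+Corin lists. RUNX1 held 18, 22, 26 and 30 regions in the same order, and SPI1 6, 7, 9 and 13. For CEBPE the numbers were 10, 14, 13 and 19. CEBPA had 18, 18, 20 and 21 regions, a narrow range. EGR2 (12, 12, 15 and 14) and KLF4 (7, 6, 8 and 7) were highest in the Corin list. IRF8 was the gene whose number of regions was highest after DMSO, with 18 regions against 13, 17 and 17. CEBPD had 3, 3, 2 and 3. Regions do not measure length: IRF8 had 30.5 kb under peaks for DMSO and 34.0 kb for ATRA+Corin despite having fewer regions.

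**Figure D1:**
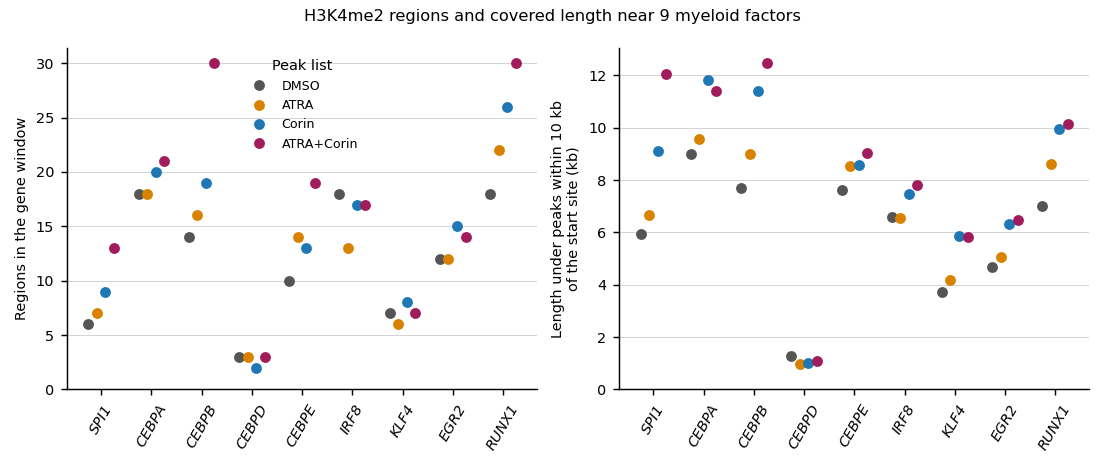
Number of H3K4me2 regions in the window of each gene (left) and length under peaks within 10 kb of its start site in kb (right), 1 point for each of the 4 peak lists, with no replicate values. CEBPB and RUNX1 reach 30 regions in the ATRA+Corin list, and CEBPD lies lowest in both panels.

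Gained regions, those with a peak after treatment and none in the comparison list, were counted next. ATRA against DMSO gave 14 gained regions out of 111 near the 9 genes (12.6%, 95% exact binomial interval 7.07 to 20.3%, counting error only), against 17.7% of all regions. Lost regions numbered 9 of 106 (8.49%, 3.96 to 15.5%), against 9.07% of all regions. At least 1 gained region was found for 6 of the 9 genes, where 59.5% of all protein-coding genes had one, and at least 1 lost region for 5, where 38.6% had one. Among genes with a DMSO peak within 1 kb of the start site, as 8 of the 9 have, the shares were 65.8% and 43.4%. The ATRA gains lay near RUNX1 (5), CEBPE (4), CEBPB (2), SPI1 (1), CEBPA (1) and CEBPD (1).

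Corin against DMSO gave 36 gained regions of 129 (27.9%, 20.4 to 36.5%), against 24.2% of all regions, and 13 lost of 106 (12.3%, 6.70 to 20.1%), against 9.62%. Gains touched 8 of 9 genes (background 70.2%) and losses 6 of 9 (39.7%). Genes with a DMSO peak within 1 kb of the start site gave 78.0% and 44.3%. The combination against DMSO gave 56 gained regions of 154 (36.4%, 28.8 to 44.5%), against 36.6% of all regions, and 8 lost of 106 (7.55%, 3.31 to 14.3%), against 6.98%. Gains touched all 9 genes (background 81.2%) and losses 4 of 9 (31.6%). Among genes with a DMSO peak within 1 kb of the start site these shares were 89.4% and 35.8%. The median number of regions gained per gene was 5 for the 9 genes, 6 for 35 other blood transcription factors and 3 for all protein-coding genes. The highest numbers were 16, 18 and 37. The 3 comparisons with DMSO share the DMSO list. An estimated depth was also made equal, a check chosen after seeing the data, since the lists give no library totals. The fragments and background recovered from each peak's deposited fold and −log10 p were scaled to the lowest list, and peaks whose recomputed −log10 p was at least 5 were kept. The gains were then 13 for ATRA, 23 for Corin and 26 for the combination, and the last made 22.4% of the regions near these genes against 28.9% of all regions. With peaks less than 1 kb apart merged, the combination gained 23 of 107 regions (21.5%), against 28.8% of all regions.

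Set against the single drugs, the combination gained 47 of 154 regions (30.5%, 23.4 to 38.4%) over ATRA, where 29.8% of all regions were gained, and lost 4 of 111 (3.604%, 0.990 to 8.97%), where 6.93% were lost. Over Corin it gained 40 of 154 (25.97%, 19.2 to 33.6%; all regions 25.7%) and lost 15 of 129 (11.6%, 6.66 to 18.4%; all regions 8.66%). Gains over ATRA touched 8 of 9 genes (background 78.0%) and losses 4 (33.5%). Gains over Corin touched 8 (74.5%) and losses 5 (42.8%). Genes with a DMSO peak within 1 kb of the start site gave 86.4% and 37.7% against ATRA, and 83.0% and 49.6% against Corin. With lists of equal length the combination gained 17 and lost 13 against ATRA, and against Corin it gained 13 and lost 14, so the direction turned. At equal estimated depth it gained 20 and lost 9 against ATRA and gained 16 and lost 12 against Corin. Without these changes, in all 5 comparisons the interval for the 9 genes included the share over all regions. Shares this near the background are not a result about the myeloid factors, and the rest concerns where the marked sites lay at each gene.

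**Figure D2:**
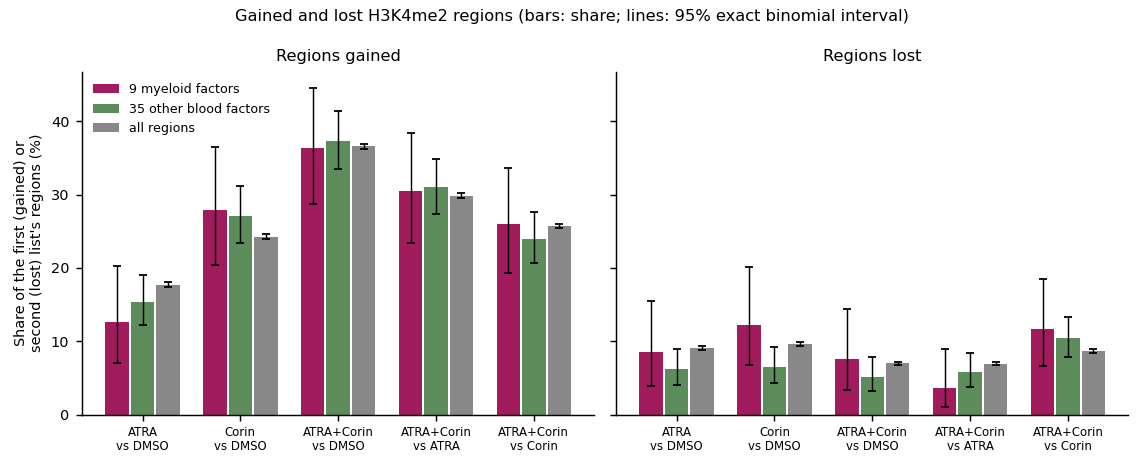
Share of regions gained (left) and lost (right) in each comparison, for the 9 myeloid factors, 35 other blood transcription factors and all regions of the genome; vertical lines are 95% exact binomial intervals, which cover counting error only. In all 5 comparisons the interval of the 9 factors includes the share over all regions.

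The start sites of the 9 genes fell into 3 kinds. SPI1, CEBPB, CEBPE, KLF4 and EGR2 lay under a peak in every list, and CEBPA and RUNX1 in some lists, with peaks on either side in the others. IRF8 and CEBPD were under a peak in none of the lists used here. With DMSO 6 start sites were under a peak (47.3% of all protein-coding genes), with ATRA 7 (48.1%), with Corin 6 (38.0%) and with both drugs 5 (38.0%). A peak within 1 kb of the start was present for 8 genes with DMSO, 7 with ATRA, 7 with Corin and 8 with ATRA+Corin. The shares over all genes were 61.3%, 61.5%, 61.5% and 62.3%. The peaks at SPI1, CEBPA, CEBPB and CEBPE were among the widest of their lists: in the DMSO list they were wider than 98.96%, 99.6%, 99.4% and 98.01% of peaks, respectively. That ranking is against all DMSO peaks, of median width 741 bp, and not against peaks at other start sites. The width passed by 1% of all peaks was 5116 bp (DMSO), 5623 bp (ATRA), 6043 bp (Corin) and 6498 bp (ATRA+Corin).

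**Figure D3:**
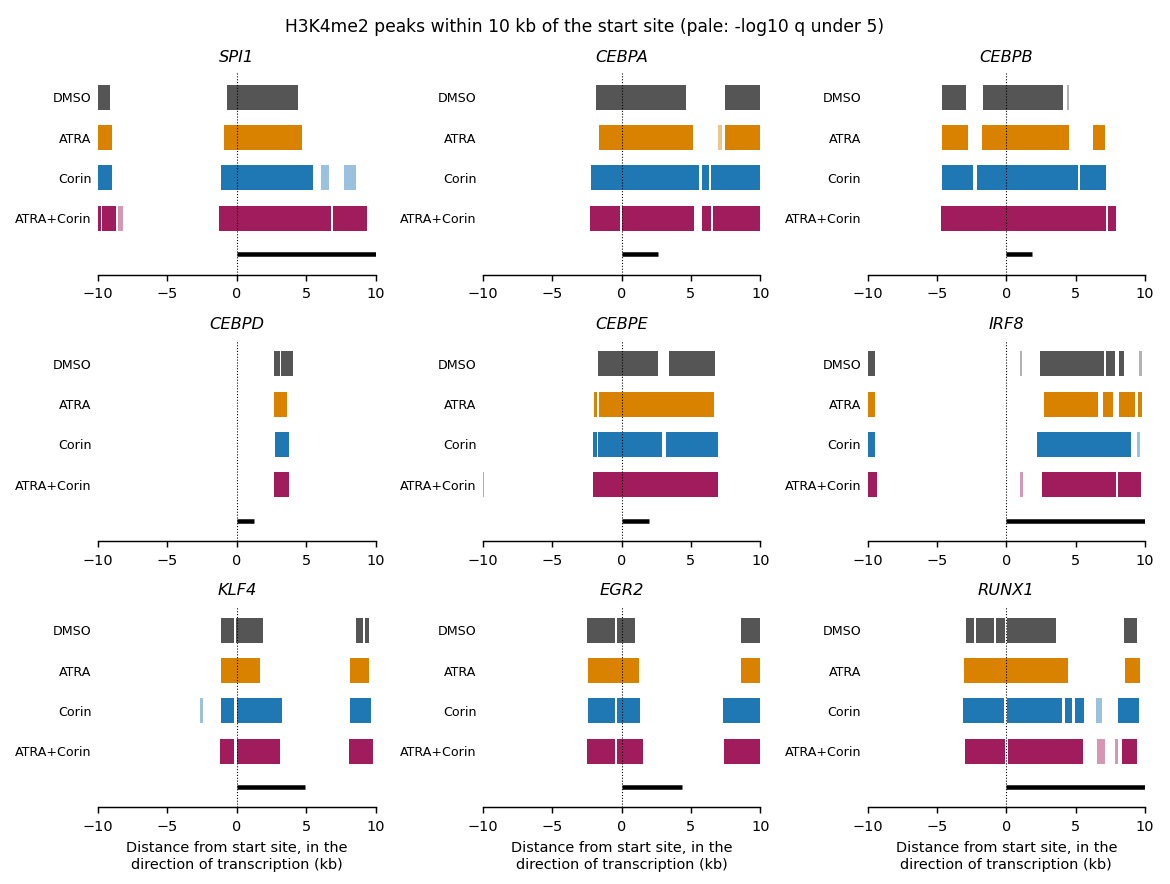
Peaks of each list within 10 kb of the start site (dotted line; distance in kb along the direction of transcription), with the canonical transcript as a black bar; pale bars have a −log10 q under 5. The CEBPB peak is widest for ATRA+Corin (11920 bp), where the other lists hold separate peaks. The CEBPE peak is continuous in both lists with ATRA, and the IRF8 and CEBPD start sites are under no peak.

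SPI1 (chr11:47354860-47378547, minus strand) encodes PU.1, an ETS-family factor required for monocytes, macrophages and B cells. Its start-site peak was 5064 bp wide (DMSO), 5611 bp (ATRA), 6667 bp (Corin) and 8095 bp (ATRA+Corin). The growth was on the transcribed side: the peak ended at 4393, 4672, 5501 and 6820 in that order, while its upstream edge moved from -670 to -1274. Beyond that edge the ATRA+Corin list held further peaks in the gene body. The strongest of the regions without a DMSO peak spanned 6940 to 9363 in an intron (chr11:47369184-47371607), and its ATRA+Corin peak had a −log10 q of 39.7. The Corin list held a weak peak of 889 bp there (3.62), and the ATRA list none. A second intronic region, 11727 to 14406, was also present with Corin (1112 bp) and ATRA+Corin (2680 bp, −log10 q 16.5) only. In all, SPI1 gained 7 regions with the combination against DMSO and lost 0. Its window had 22.7 kb under peaks for DMSO, 24.4 kb for ATRA, 28.8 kb for Corin and 37.4 kb for ATRA+Corin, and the last was 1.65 times the first.

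The place of the upstream regulatory element of SPI1, an enhancer that PU.1 itself binds, was marked in all 4 lists. Known enhancers were placed by their nominal distance from the start site, from general knowledge, and peaks were sought in a window of 4 kb there. For SPI1 the nominal distance is 17 kb upstream. The peak summits there lay at -16886, -16873, -16820 and -16869 for DMSO, ATRA, Corin and ATRA+Corin. The peaks were 3593, 8778, 3436 and 5971 bp wide, and in the ATRA list 1 peak ran from -17741 to -8964. In each of the other lists this stretch was divided among 3 peaks. The region at -17741 to -8688 had 8138, 8778, 7716 and 8791 bp under peaks in the same order of lists. Within the DMSO and ATRA lists the element carried the strongest peak of the SPI1 window (−log10 q 151 and 299), while in the Corin and ATRA+Corin lists the strongest was the start-site peak (93.7 and 174). The SPI1 window also holds the starts of MYBPC3, SLC39A13, PSMC3 and RAPSN, and 6 of its 13 regions had the SPI1 start as the nearest. The sequence reaching 100 bases to either side of the DMSO summit is given on the plus strand, 5′ to 3′, from GRCh38 at chr11:47395333-47395533. It is centred on an H3K4me2 summit and not on a mapped element. Capitals mark a match to the KLF motif CCACACCC, the only match there to the motifs searched.
SPI1 upstream element: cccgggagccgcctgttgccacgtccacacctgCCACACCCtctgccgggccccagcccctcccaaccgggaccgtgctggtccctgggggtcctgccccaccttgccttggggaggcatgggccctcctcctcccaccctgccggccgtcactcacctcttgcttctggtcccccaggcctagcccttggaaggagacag

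**Figure D4:**
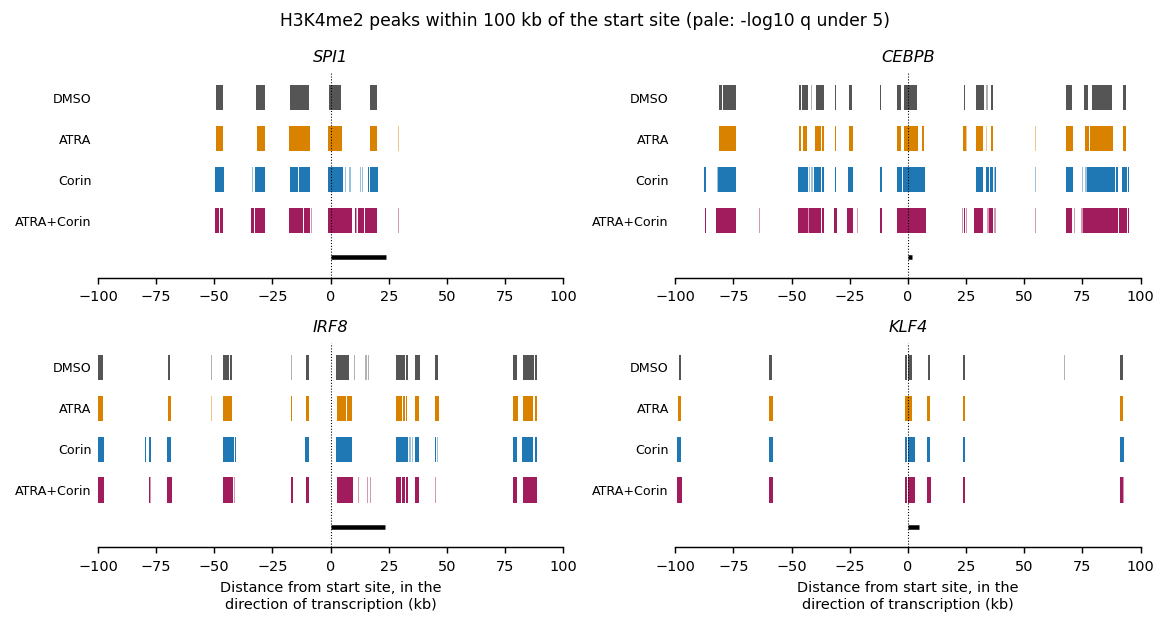
Peaks of each list within 100 kb of the start site of SPI1, CEBPB, IRF8 and KLF4 (distance in kb along the direction of transcription; black bar, canonical transcript; pale, −log10 q under 5). The SPI1 gene body fills with peaks in the ATRA+Corin list, CEBPB holds 30 regions in that list, and KLF4 holds 6 to 8 regions in each list.

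CEBPA (chr19:33299934-33302534, minus strand) encodes C/EBPα, which progenitors need to enter the granulocyte and monocyte lineages. The start site lay under 1 peak of 6434 bp for DMSO, 6725 bp for ATRA and 7781 bp for Corin. In the ATRA+Corin list the same stretch was called as 2 peaks, of 2168 bp (-2275 to -108) and 5184 bp (5 to 5188), with the start site in a gap of little more than 100 bp between them. The window was already densely marked with DMSO, at 54.1 kb, and reached 55.4 kb for ATRA, 64.9 kb for Corin and 65.4 kb for ATRA+Corin. Of its 25 regions, 19 lay outside genes. A domain downstream of the gene was called as a peak of 10869 bp for Corin (26809 to 37677) and 10604 bp for ATRA+Corin (27057 to 37660). It was divided among 3 peaks for DMSO and 2 for ATRA, with 8330 and 8088 bp under peaks. The strongest peak of the window lay within it for DMSO (summit at 29001), ATRA (28895) and ATRA+Corin (28984).

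The nominal place of the myeloid enhancer about 42 kb downstream of CEBPA was marked to nearly the same extent in every list, with peaks of 3649, 3713, 3775 and 3767 bp. Its summits lay at 41130 and 41149 for DMSO and ATRA and at 41972 and 41916 for Corin and ATRA+Corin. CEBPA gained 5 regions with the combination and lost 2, none with a −log10 q above 6. The strongest gain, -37538 to -36885 (5.81), was nearer to the start of CEBPG, a family member in the same window. The bases around the DMSO summit at the enhancer (chr19:33261304-33261504) and around the summit of the gained site (chr19:33339460-33339660) are shown, plus strand. They are examples of a kept and a weakly gained peak. Capitals mark a match to the PU.1 motif GAGGAAGT.
CEBPA downstream enhancer: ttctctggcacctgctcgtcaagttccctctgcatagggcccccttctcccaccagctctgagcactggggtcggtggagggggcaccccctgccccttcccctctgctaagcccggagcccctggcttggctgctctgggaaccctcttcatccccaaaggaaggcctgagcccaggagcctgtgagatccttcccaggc
CEBPA gained region: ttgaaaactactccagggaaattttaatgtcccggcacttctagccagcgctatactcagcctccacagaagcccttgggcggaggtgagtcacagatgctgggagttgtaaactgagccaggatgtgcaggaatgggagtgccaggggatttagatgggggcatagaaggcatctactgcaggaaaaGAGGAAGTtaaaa

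CEBPB (chr20:50190830-50192668, plus strand) encodes C/EBPβ, a factor of macrophage genes and of granulocyte production under stress. It had the widest start-site peak of the 9 genes in the ATRA+Corin list, 11920 bp, reaching from -4709 to 7210, and wider than 99.89% of that list's peaks. The corresponding peaks were 5764 bp for DMSO, 6319 bp for ATRA and 7295 bp for Corin. In these 3 lists separate peaks lay upstream and downstream of the start-site peak, and the ATRA+Corin peak covered all these positions. The region at -4709 to 7210 had 7694 bp (DMSO), 9004 bp (ATRA), 11396 bp (Corin) and 11920 bp (ATRA+Corin) under peaks. Length under peaks in the window was 43.9 kb (DMSO), 47.0 kb (ATRA), 59.6 kb (Corin) and 69.8 kb (ATRA+Corin). Relative to DMSO, 16 regions were gained and 0 lost with the combination, the most gains of the 9 genes. Only 4 of the 16 had a −log10 q of at least 5. Over all protein-coding genes the number gained had a median of 3, a 75th percentile of 5 and a maximum of 37.

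A broad domain over the lncRNA gene PELATON, downstream of CEBPB, held the widest peak of the window in 3 lists. It was 8812 bp for DMSO (79029 to 87840), 12022 bp for Corin (77070 to 89091) and 15116 bp for ATRA+Corin (75337 to 90452). In the ATRA list the domain was divided among 3 peaks. The whole domain had 10171 bp (DMSO), 11859 bp (ATRA), 13805 bp (Corin) and 15116 bp (ATRA+Corin) under peaks. The strongest gained region with the combination followed it at 94468 to 95041, with a −log10 q of 12.4. A Corin peak of 483 bp was present at the same place (6.76). A region at 23844 to 24919 behaved differently. It was present for DMSO (−log10 q 9.03), ATRA (32.2) and ATRA+Corin (12.2) and held no Corin peak, and it was both the strongest loss with Corin and the strongest gain of the combination over Corin. The gained site beyond the domain (chr20:50285302-50285502, plus strand) had no match to the 9 motifs searched.
CEBPB gained region: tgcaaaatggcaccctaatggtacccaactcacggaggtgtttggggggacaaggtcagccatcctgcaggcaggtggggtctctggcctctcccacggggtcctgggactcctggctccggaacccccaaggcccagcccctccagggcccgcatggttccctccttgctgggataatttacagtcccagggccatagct

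CEBPE (chr14:23117306-23119255, minus strand) encodes C/EBPε, which acts late in granulocyte maturation and is a known target of retinoic acid. Its start-site peak set the lists with ATRA apart from those without. The peak was 4279 bp wide for DMSO and 4582 bp for Corin, against 8327 bp for ATRA and 8951 bp for ATRA+Corin. With DMSO and Corin it ended at 2607 and 2911, and a second peak followed a short gap. With ATRA and ATRA+Corin a single peak ran on to 6668 and 6918. Length within 10 kb of the start differed less, at 7.64 kb (DMSO), 8.53 kb (ATRA), 8.59 kb (Corin) and 9.03 kb (ATRA+Corin), so the lists differed mainly in whether the gap was covered.

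The CEBPE window is crowded, with 7 other protein-coding starts, and CEBPE was the nearest start for 3 of its 20 regions. The combination gained 9 regions and lost 0 against DMSO, and 1 of the 9 was nearest to CEBPE. The strongest gain, -61515 to -59718, lay in an intron of SLC7A8 and held peaks of 444 bp for ATRA, 896 bp for Corin and 1790 bp for ATRA+Corin (−log10 q 4.81, 4.69 and 8.45).

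CEBPD, on chromosome 8, encodes C/EBPδ, a factor induced in inflammation. The lists used here hold no peak within 1 kb of its start. The nearest region spanned 2649 to 4042 and was present in all lists with 1265 bp under peaks for DMSO, 988 bp for ATRA, 1014 bp for Corin and 1077 bp for ATRA+Corin. It was also the strongest of the window in each list (−log10 q 9.27, 17.4, 7.63 and 23.5). Its window had 1.81, 1.71, 1.23 and 1.94 kb under peaks, the least of the 9 genes, and all 4 of its regions lay within other genes.

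IRF8 (chr16:85899162-85922606, plus strand) directs progenitors towards monocytes and dendritic cells. Its start site lay under no peak in any list. The only peak within 1 kb was 188 bp wide, at 966 for DMSO and at 985 for ATRA+Corin, with a −log10 q of 3.73 and 4.20. The marked part of the gene began further in: a region at 2191 to 9791 had 5841 bp under peaks for DMSO, 6038 bp for ATRA, 6971 bp for Corin and 6939 bp for ATRA+Corin. Its −log10 q was 20.5, 97.1, 18.5 and 53.4 within the respective lists.

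The treatments differed at IRF8 in which weak peaks were called. ATRA gained 0 regions against DMSO and lost 5, all inside the IRF8 gene. Corin gained 6 and lost 7, and the combination gained 3 and lost 4. None of the lost regions had a −log10 q of 5 or more in the DMSO list. Among the Corin gains 4 did, the strongest at 35655 to 35986 (5.77), which the ATRA+Corin list lacked. Strong elements were kept in every list, such as the regions at -46371 to -41283 and at 82295 to 88833. The latter held the strongest peak of the window for DMSO, ATRA and ATRA+Corin, with summits at 84753, 84774 and 84799. A region at -17199 to -16231 was present for DMSO (3.73), ATRA (11.1) and ATRA+Corin (9.38) and held no Corin peak.

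KLF4 (chr9:107484852-107489769, minus strand) is a zinc-finger factor of monocyte differentiation. In the DMSO, Corin and ATRA+Corin lists a pair of peaks flanked a gap just upstream of its start, and in the ATRA list 1 peak of 2806 bp (-1111 to 1694) bridged it. The downstream peak of the pair was 1963 bp for DMSO, 3247 bp for Corin and 3133 bp for ATRA+Corin, so it reached further into the gene in both lists with Corin (3238 and 3128, against 1925). The window held 8.57 kb under peaks for DMSO, 9.54 kb for ATRA, 12.1 kb for Corin and 12.0 kb for ATRA+Corin. It had no other protein-coding start. Against DMSO the combination gained 1 region and lost 1. The gain was a peak of 221 bp at -24102 (−log10 q 7.57), where the Corin list had a peak of 186 bp (2.49). Its summit window (chr9:107513660-107513860, plus strand) holds a match to the C/EBP motif TTGCNNAA on the other strand, shown in capitals.
KLF4 gained region: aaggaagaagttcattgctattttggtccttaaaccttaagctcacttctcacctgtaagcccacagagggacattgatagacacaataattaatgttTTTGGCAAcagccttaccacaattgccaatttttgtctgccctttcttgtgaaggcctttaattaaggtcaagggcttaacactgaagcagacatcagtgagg

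EGR2 (chr10:62811996-62816366, minus strand) encodes an early growth response factor that supports the macrophage programme. Its start site showed the same arrangement as that of KLF4: a flanking pair of peaks for DMSO, Corin and ATRA+Corin, and a single ATRA peak of 3667 bp (-2385 to 1281). The upstream peak of the pair measured 2006, 1954 and 1974 bp in these 3 lists, and the downstream one 1307, 1673 and 1865 bp. The peak over the start site of the neighbouring gene ADO, which is the nearest start to that region, was wider in both lists with Corin, at 5530 bp (7295 to 12824) for Corin and 5310 bp (7356 to 12665) for ATRA+Corin, against 3846 bp for DMSO and 3867 bp for ATRA. ATRA gained 0 regions and lost 0. Corin gained 3, the strongest at -77002 to -76586 (8.06), which the ATRA+Corin list lacked. The combination gained 2, neither with a −log10 q of 5 or more.

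RUNX1 (chr21:34787801-35049302, minus strand) is the DNA-binding partner of CBFB, is needed to form blood stem cells and is often altered in leukaemia. It has a distal promoter at its canonical start and a proximal promoter inside the gene. The canonical start was under a peak only in the ATRA list, where 1 peak of 7494 bp ran from -3076 to 4417. In the other lists it fell in a gap between peaks, with downstream peaks of 3574 bp for DMSO, 3913 bp for Corin and 5399 bp for ATRA+Corin that began at 36, 75 and 109. The window, which includes the whole transcript, had 41.7, 48.5, 57.6 and 61.6 kb under peaks for DMSO, ATRA, Corin and ATRA+Corin.

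The proximal promoter of RUNX1, where GENCODE places transcript starts at 159512, 160612 and 162119, was the widest peak of the window in each list. It measured 8667 bp (DMSO), 9923 bp (ATRA), 5136 bp (Corin) and 10588 bp (ATRA+Corin). In the Corin list a second peak followed after a short gap, from 163539 to 168391. The region at 158078 to 168784 had 9103, 9923, 9989 and 10588 bp under peaks in the same order of lists. Just upstream of the proximal promoter with respect to transcription lay a region at 156550 to 157249. It was absent from the DMSO and ATRA lists, 255 bp long in the Corin list (−log10 q 6.39) and 697 bp in the ATRA+Corin list (24.6). It was the strongest gain of the combination at RUNX1, where 12 regions were gained and 0 lost, 7 of the gains with a −log10 q of at least 5. ATRA alone gained 5 regions, among them 221082 to 222070 (13.0), which the Corin and ATRA+Corin lists also held (4.23 and 16.0). The nominal place of the intronic enhancer about 23 kb into the gene was marked in all lists. Its peaks were 2953, 3290, 3600 and 3389 bp wide, with summits between 22157 and 22176. The bases around the DMSO summit at the enhancer (chr21:35027045-35027245) are shown on the plus strand. So are those around the summit of the gained site beside the proximal promoter (chr21:34892501-34892701). Neither holds a match to the motifs searched.
RUNX1 intronic enhancer: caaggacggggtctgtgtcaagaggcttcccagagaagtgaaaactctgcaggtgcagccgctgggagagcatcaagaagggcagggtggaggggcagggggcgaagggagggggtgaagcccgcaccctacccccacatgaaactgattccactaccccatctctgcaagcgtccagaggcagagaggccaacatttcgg
RUNX1 gained region: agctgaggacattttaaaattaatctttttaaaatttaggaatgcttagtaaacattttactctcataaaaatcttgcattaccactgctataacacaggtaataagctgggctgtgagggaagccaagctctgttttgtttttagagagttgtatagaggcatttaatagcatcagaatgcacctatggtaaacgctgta

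The motifs searched within 100 bases of each summit, on both strands, were PU.1 GAGGAAGT, C/EBP TTGCNNAA, RUNX TGTGGTT, EGR GCGTGGGCG, KLF CCACACCC, the GFI1 motif and paired retinoic acid receptor elements GGTCA in direct repeat, with 5, 2 or 1 bases between them. A match describes letters and is not a bound site. The KLF letters were held by 11 of 151 DMSO, 7 of 145 ATRA, 9 of 176 Corin and 10 of 179 ATRA+Corin peaks near the 9 genes. These shares were 7.28, 4.83, 5.11 and 5.59%, against 3.30, 3.26, 3.08 and 3.08% of all peaks. In the same order, the C/EBP shares were 5.96, 4.83, 5.11 and 6.70%, against 7.77, 8.43, 8.93 and 9.93% of all peaks. The RUNX shares were 3.97, 2.07, 1.7 and 2.23%, against 3.37, 3.52, 3.65 and 3.87%. The PU.1 letters were held by 1 of 151 DMSO, 0 of 145 ATRA, 5 of 176 Corin and 4 of 179 ATRA+Corin peaks near these genes (0.662, 0, 2.84 and 2.23%). The shares of all peaks were 1.42, 1.49, 1.44 and 1.68%, and counts this small give no order of the lists. No GFI1 and no EGR letters were found near these genes, and 1 DMSO peak held a receptor pair, spaced by 5 bases. Over all peaks these letters were rare too, at 0.14 to 0.21% for GFI1, 0.133 to 0.21% for EGR and 0.0959 to 0.109% for the pair spaced by 5, so among 145 to 179 peaks a count of 0 or 1 is near the background. Neighbouring peaks of different lists share sequence, so the lists are not independent here. Promoters of 300 bases were matched for 7 of the 9 genes in RefSeq, and 1 of them, that of IRF8, held the RUNX letters, as did 3.58% of 15316 promoters; the other motifs were found in none of the 7.

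A list of 35 other blood transcription factors gave the setting for these values. The combination gained 229 of 613 regions near them (37.4%, 33.5 to 41.3%) and at least 1 region at 33 of 35 genes. Corin gained 141 of 520 (27.1%, 23.3 to 31.2%) and ATRA 69 of 449 (15.4%, 12.2 to 19.0%). Corin lost 26 of 405 (6.42%, 4.24 to 9.26%) there, against 12.3% near the 9 myeloid factors, with overlapping intervals. Length under peaks with the combination was at least 1.5 times that of DMSO for 4 of the 9 myeloid factors (SPI1, CEBPB, CEBPE and EGR2), where 36.0% of all genes with DMSO peaks passed that ratio. The median ratio was 1.48 for the 9 genes and 1.38 for all. Within 10 kb of the start that ratio was reached by 3 of the 9 genes and by 25.7% of all genes with DMSO peaks there. The medians there were 1.39 and 1.25.

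The protein-coding gene most like each factor was taken as the one with the smallest distance over 8 values, the covered share within 1 kb and within 10 kb of the start in the 4 lists. SPI1 was closest to PLAUR, the receptor of urokinase, whose length under peaks within 10 kb was 5.18 kb (DMSO), 7.17 kb (ATRA), 9.88 kb (Corin) and 12.8 kb (ATRA+Corin). For SPI1 itself it was 5.95, 6.65, 9.13 and 12.1 kb. CEBPA was closest to IKZF1, the gene of the lymphoid factor Ikaros, CEBPB to ATXN1, CEBPE to EEF1AKMT3 and IRF8 to LY6G5B. KLF4 was closest to ITPR1, an intracellular calcium channel, EGR2 to DFFA, RUNX1 to NDUFC1 and CEBPD to GRM4. These likenesses describe the covered length in 4 lists only.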

How the data were processed

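H3K4me2 chromatin immunoprecipitation libraries of U-937 cells were sequenced, and the authors deposited 4 narrowPeak lists, 1 pooled list per treatment. Per the submitters' processing notes, the tools were Trimmomatic, Bowtie2, Picard and MACS2 and the build was hg38; versions and thresholds are not given in the sources used here. The deposited score of a peak is 10 times its −log10 p without decimals, with 1000 as its upper limit; in 16 peaks it is lower by 1. The authors' fold enrichment over input is a ratio at the summit. The authors' −log10 values, for p and for q, come from the same caller. From these lists, 84577 regions were formed by joining peaks that overlapped or touched; regions were counted in windows of 100 kb around the canonical start site plus the canonical transcript (GENCODE release 44); shares were given 95% exact (Clopper-Pearson) intervals; and exact motif matches were counted within 100 bases of summits. Python 3.11.15, pandas 2.3.3, NumPy 2.4.6 and SciPy 1.17.1 were used, and the counting was tested on simulated data with known gains and losses.

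Depth per library is not given by the lists. A whole number of fragments and a background were solved from each peak's deposited fold and −log10 p, and the median summit held 39 (DMSO), 45 (ATRA), 40 (Corin) and 45 (ATRA+Corin) fragments. A deeper library can show weaker peaks, and a peak that is missing from a list is not proof that the mark is absent. Some peaks of the original lists are not analysed here: of the 30000 lowest peak numbers, 16 to 22 were missing from each list. Groups were taken from the sample titles. No test across treatments was run, since each list pools its replicates. The 9 genes, the comparison list, the markers and the motifs were chosen with earlier results of these data known. Named for each gene were its start-site peak, known enhancers, and in each comparison the strongest gained and lost region by −log10 q, of which the main ones are printed; other regions were picked after their values were seen. Sequences of the gained sites of IRF8 and EGR2, both with a −log10 q under 5, are not printed. Some marker genes and some other gained-site sequences are also not reported here. Alternatives covered the strength of peaks, the length of lists, merging, overlap, windows and an estimated equal depth, for which the recovered fragments and background were scaled to the lowest list and each −log10 p was recomputed.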

Additional observations from a re-analysis of the deposited data

How the results depend on the processing

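No paired analysis was possible because each treatment has 1 pooled peak list with no values per replicate, and for the same reason no replicate could be left out. Counts of gained and lost regions near the 9 genes depended on how peaks were called and joined: of 100 recounts under 10 alternatives, 39 stayed within 1.5 times the count in the report and 61 did not. Over all regions of the genome, gains outnumbered losses in all 5 comparisons under the main rule, for example 27150 against 3537 for the combination against DMSO. Near the 9 genes gains outnumbered losses in all 5 comparisons under every alternative except 3 cases. These were ATRA against DMSO with a window of 10 kb (1 gained, 1 lost) or with regions nearest to the gene only (7 and 9), and ATRA+Corin against Corin with lists of equal length (13 and 14). The alternatives of equal estimated depth and of the nearest start site only were chosen after seeing the data. The counts that moved follow, by alternative.

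With −log10 q of at least 5 in all lists, losses were 1 (ATRA), 2 (Corin) and 2 (ATRA+Corin) against DMSO. Gains were 19 for Corin and 28 for ATRA+Corin. The combination gained 21 over ATRA and 20 over Corin. Those losses were 1.16, 2.33 and 2.33% of regions near the 9 genes, against 5.37, 7.73 and 5.22% of all regions. The gains against DMSO were 18.4 and 25.0%, where all regions gave 21.5 and 30.7%. Over ATRA and Corin they were 18.8 and 17.9%, where all regions gave 20.8 and 19.9%. With that strength asked only of the list holding the peak, gains against DMSO were 4 (ATRA), 13 (Corin) and 22 (ATRA+Corin) and losses 0, 1 and 0; the combination gained 17 and lost 0 against ATRA, and gained 8 and lost 5 against Corin. With lists cut to the 65172 strongest peaks, the combination gained 23 and lost 14 against DMSO, gained 17 and lost 13 against ATRA, and gained 13 over Corin. With peaks within 1 kb merged, losses against DMSO were 3 (ATRA), 6 (Corin) and 2 (ATRA+Corin), and gains 17 for Corin and 23 for ATRA+Corin. The combination gained 15 and lost 2 against ATRA, and gained 16 and lost 6 against Corin. The losses against DMSO were 3.49, 6.98 and 2.33%, where all regions gave 7.17, 7.84 and 5.08%. The gains against DMSO were 17.5 and 21.5%, where all regions gave 18.8 and 28.8%. Against ATRA the shares were 14.0% gained and 2.13% lost (all regions 22.1 and 5.32%). Against Corin they were 15.0 and 6.19% (all regions 19.1 and 4.99%). With single peaks and 50% overlap, ATRA gained 30 and lost 18, Corin gained 62, and the combination lost 10 against ATRA. A window of 50 kb left gains of 8 (ATRA), 23 (Corin) and 36 (ATRA+Corin) against DMSO, and losses for the combination of 5 against DMSO and 2 against ATRA. A window of 10 kb left gains of 1, 4 and 7 and losses of 1, 1 and 0 against DMSO; the combination gained 7 and lost 0 against ATRA, and gained 5 and lost 1 against Corin. At equal estimated depth, gains were 23 for Corin and 26 for ATRA+Corin against DMSO. The combination gained 20 and lost 9 against ATRA, and gained 16 over Corin. The gains against DMSO were 20.5 and 22.4%, where all regions gave 21.7 and 28.9%. Against ATRA the shares were 17.2% gained and 8.57% lost (all regions 20.3 and 9.9%). Over Corin 13.8% were gained (all regions 18.9%). With the nearest start site only, gains against DMSO were 7 (ATRA), 23 (Corin) and 33 (ATRA+Corin); the combination gained 30 and lost 2 against ATRA, and gained 26 over Corin. The smaller windows and the nearest-start rule hold fewer regions by construction, and for the other alternatives the cause was not tested. The counts of start sites under a peak were the same under each alternative run on them, and those of genes with a peak within 1 kb differed by at most 1.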

Other observations

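The wide peaks over start sites were interrupted at or just upstream of the start in some lists and not in others. The gap was bridged only in the ATRA list at RUNX1, KLF4 and EGR2, and was present only in the ATRA+Corin list at CEBPA. The ATRA list had the most start sites under a peak both among the 9 genes (7) and among all protein-coding genes (48.1%). Whether the gaps reflect the cells or the calling of peaks was not tested.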
